A study of Homo sapiens with 18 samples.

Results

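The unfolded protein response and the integrated stress response were followed through 37 listed genes, which cover their sensors, transcription factors, target enzymes, transporters, chaperones and degradation factors. The members were taken by symbol, and all 37 were found among the 57120 genes of the TruSeq table and among the 44267 genes of the PLATE-seq table.

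The titles of all libraries name MDA-MB-436, a human breast adenocarcinoma cell line known as triple-negative, grown in DMEM with serum and antibiotics, although the cell line tags of the PLATE-seq libraries carry other numbers. The study compared cells with and without SMARCAL1, a DNA translocase that remodels stalled replication forks. The 6 TruSeq libraries of total RNA held 3 of the control and 3 of SMARCAL1 knockout clone 1. The 12 PLATE-seq libraries, made from polyadenylated RNA in a pooled plate format, held 2 each of the control, of knockout clones 1, 2 and 3, of cells with a control siRNA and of cells with siRNA against SMARCAL1, for 8 groups in all. No group was given a stress-inducing drug in the labels, so the values describe the response genes in cells without such a drug. The cells of the siRNA groups were transfected, and the others were under ordinary culture. Each knockout group is a single clone, so a difference of 1 clone and an effect of the knockout cannot be told apart within it. The replicates are those the labels call biological. Whether they came from separate cultures is not stated, and p-values measure only the spread between these libraries. In these bulk samples a smaller share of expressing cells and less RNA per cell also cannot be told apart.

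The endoplasmic reticulum holds 3 sensors of misfolded protein. IRE1 (encoded by ERN1) splices XBP1 messenger RNA, PERK (EIF2AK3) phosphorylates the translation factor eIF2-alpha, and ATF6 is cut in the Golgi to release a transcription factor. Phosphorylated eIF2-alpha slows most translation but favours translation of ATF4 messenger RNA, so that much of ATF4 control lies beyond what RNA counts measure. ATF4 activates genes of amino acid synthesis and transport, and XBP1 and ATF6 activate chaperones and degradation factors of the endoplasmic reticulum.

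Promoters of several chaperone genes carry elements known to be bound by ATF6 and XBP1, and targets of ATF4 carry another. They are shown because the changes are also counted below by the element a promoter holds. RefSeq promoters (GRCh38.p14, 250 bases before to 50 after the gene start) were matched for 34 of the 37 members, all but PSPH, SHMT2 and SLC7A11. Both strands were searched for the endoplasmic reticulum stress elements ERSE (CCAAT and CCACG with 9 free bases between them) and ERSE-II (ATTGG and CCACG with 1 free base between them), for a core of the unfolded protein response element (TGACGTGG), and for a core of the C/EBP-ATF response element bound by ATF4 (TGATGNAA). ERSE was in 5 promoters, of XBP1, HSPA5, HSP90B1, PDIA6 and CRELD2, against 0.0916% of the 27305 genes with a promoter. ERSE-II was in 3 promoters, of HERPUD1, SDF2L1 and HYOU1, against 0.0696% of all genes. Either form was thus in 8 of 34 members (23.5%) and in 0.161% of all genes. The unfolded protein response core was in the HYOU1 promoter alone among members, against 0.927% of all genes. Its last letters overlap an ERSE-II at -185 from the gene start, which is not printed below. The HYOU1 stretch printed is another ERSE-II, at -79. HSP90B1 likewise holds an ERSE at -89, in reverse complement, beside the one printed, at -194. The ATF4 core was in 5 members (14.7%), CHAC1, ASNS, SLC3A2, CEBPG and HERPUD1, against 4.46% of all genes. A match is a description of the letters and not evidence of binding, and a promoter with no match says nothing about a factor.

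The stretches below run 5′ to 3′ in the direction of the gene, with the matched element in capitals and 20 bases on each side. In HSP90B1, PDIA6, HSPA5, XBP1, CEBPG and the first HERPUD1 line the element reads as spelled above, and in CRELD2, HYOU1, SDF2L1 and the second HERPUD1 line its reverse complement is shown. The first 5 lines hold ERSE, the next 3 ERSE-II, and the last 2 the ATF4 core. They lie, in the order shown, at chr9:125241371-125241429 (minus strand), chr12:103930196-103930254 (plus strand), chr2:10812833-10812891 (minus), chr22:28800583-28800641 (minus), chr22:49918534-49918592 (plus), chr11:119057254-119057304 (minus), chr22:21642094-21642144 (plus), chr16:56932005-56932055 (plus), chr19:33374051-33374098 (plus) and chr16:56931946-56931993 (plus).
HSPA5: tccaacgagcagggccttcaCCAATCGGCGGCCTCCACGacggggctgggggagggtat
HSP90B1: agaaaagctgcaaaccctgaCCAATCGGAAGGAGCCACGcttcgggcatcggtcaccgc
PDIA6: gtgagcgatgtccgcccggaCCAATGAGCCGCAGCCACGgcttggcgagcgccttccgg
XBP1: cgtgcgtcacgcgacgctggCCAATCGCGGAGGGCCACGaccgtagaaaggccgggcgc
CRELD2: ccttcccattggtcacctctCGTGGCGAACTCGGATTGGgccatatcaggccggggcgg
HYOU1: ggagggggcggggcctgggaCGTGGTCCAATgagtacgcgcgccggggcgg
SDF2L1: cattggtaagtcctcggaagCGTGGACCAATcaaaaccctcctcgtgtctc
HERPUD1: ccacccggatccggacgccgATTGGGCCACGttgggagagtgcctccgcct
CEBPG: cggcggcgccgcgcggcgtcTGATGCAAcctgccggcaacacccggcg
HERPUD1: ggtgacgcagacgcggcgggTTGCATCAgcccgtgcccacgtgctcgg

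TruSeq libraries held 10257584 to 19270648 counts and PLATE-seq libraries 807861 to 3068887 counts without spike-ins, and the members took 0.482 to 0.505% and 0.203 to 0.275% of them. Levels are counts scaled to library size (CPM), with library sizes adjusted by TMM, given as mean ± SD. CPM does not correct for gene length, so levels are compared between libraries and not between genes. SMARCAL1 was counted 163, 174 and 292 times in the TruSeq controls (13.9, 14.1 and 16.1 CPM) and 144, 254 and 211 times in the clone 1 libraries (13.4 to 14.7 CPM). In PLATE-seq it had 0 and 3 counts in the controls, 3 and 6 in clone 1, 8 and 3 in clone 2, 16 and 44 in clone 3, 7 and 8 with the control siRNA and 0 and 0 with SMARCAL1 siRNA. The SMARCAL1 values of the libraries labelled knockout overlapped those of the controls in TruSeq and, in PLATE-seq, for clones 1 and 2, and they were above them for clone 3. Counts over a whole gene cannot check a small edit in its coding sequence. Each direction given below for a clone rests on its label. The line's markers VIM, CD44, EGFR and CAV1 were detected in every group, and ESR1 and PGR stayed under 1 CPM in each TruSeq library. ERBB2, also listed as absent or low in this line, measured 37.3 to 53.5 CPM in the TruSeq libraries, with means of 41.2 CPM in the controls and 50.6 CPM in clone 1. Leukocyte and endothelial markers stayed under 5 CPM in each library, apart from CD68 at 13.7 to 20.1 CPM in TruSeq and up to 5.12 CPM in PLATE-seq.

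In the TruSeq comparison of clone 1 with control, ATF4 was the member that passed the threshold, and it fell from a mean of 316 CPM to 240.5 CPM. Sensor and target genes stayed within a log2 change of -0.36 to 0.40, in both directions. All 37 members were tested, with edgeR's quasi-likelihood F test and Benjamini-Hochberg adjustment over 17371 genes at a threshold of 0.05. Of them 0 rose and 1 fell, where 6.27% of all genes were called. DESeq2 called 1 member as well, again ATF4. At an unadjusted p under 0.05 there were 7 members, 3 higher and 4 lower, against 20.4% of all genes. Control and clone 1 libraries did not overlap for 9 of 37 members, 4 higher and 5 lower, against 26.3% of all genes, which is near the background. The log2 change of clone 1 minus control was above 0 for 20 members and below 0 for 17, with a median of 0.05 against -0.00 over all genes.

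**Figure D1:**
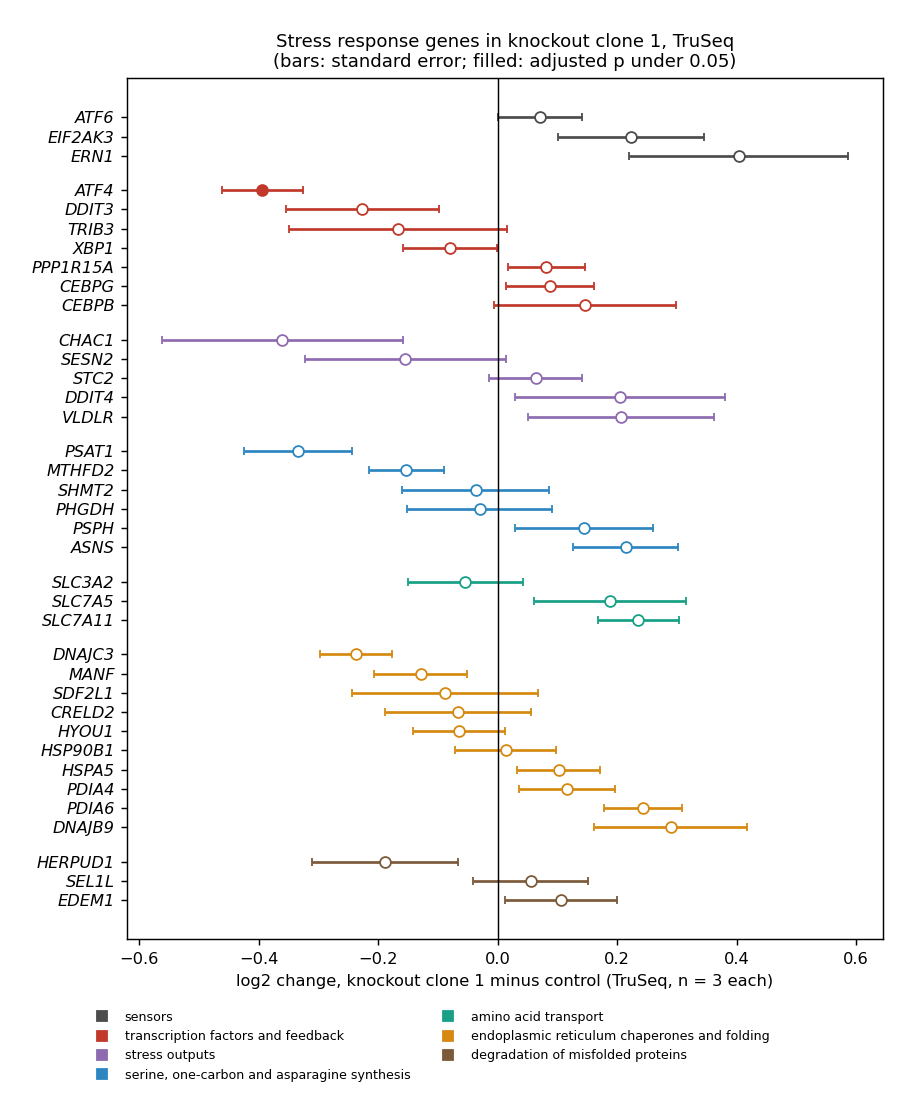
Log2 change of clone 1 minus control in TruSeq for the 37 genes, grouped by role, with standard error bars and n = 3 libraries per group; the filled point is past an adjusted p of 0.05. ATF4 lies at -0.39 and ERN1, with a wider bar, at 0.40, and every role group except the sensors has points on both sides of 0.

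ATF4, the central transcription factor of the integrated stress response (chr22:39519695-39522685, plus strand, GRCh38), measured 303, 320.0 and 325 CPM in the controls and 225, 248.5 and 248.4 CPM in clone 1. The 3 clone 1 libraries all lay below the 3 controls, with 240.5 ± 13.8 CPM against 316 ± 11.2 CPM (n = 3 each). The log2 change was -0.39 (SE 0.07, edgeR adjusted p 0.0131). The call was lost on leaving out control replicate 2, clone 1 replicate 2 or clone 1 replicate 3, with edgeR adjusted p of 0.116, 0.0567 and 0.0687 and changes of -0.38, -0.42 and -0.42. The annotation lists 4 pseudogenes under the name of ATF4, which had 1114 counts over the TruSeq libraries beside 23876 for ATF4 itself, so a part of its reads could have been split among copies.

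The 3 sensors had changes above 0 in TruSeq, and none passed the threshold, where 6.27% of all genes were called. ERN1, which encodes IRE1, measured 5.97, 5.25 and 5.06 CPM in the controls and 8.71, 5.74 and 7.22 CPM in clone 1. Its groups overlapped through clone 1 replicate 2, and the log2 change was 0.40 (SE 0.18, edgeR adjusted p 0.261). EIF2AK3, which encodes PERK, measured 24.0, 27.5 and 24.9 CPM in the controls and 35.2, 27.7 and 26.5 CPM in clone 1, with replicate 1 of clone 1 well above the others and replicate 3 within the controls (log2 change 0.22, SE 0.12, edgeR adjusted p 0.347). ATF6 measured 75.7, 82.3 and 73.9 CPM in the controls and 83.6, 79.8 and 80.2 CPM in clone 1, with overlapping groups and a log2 change of 0.07 (SE 0.07, edgeR adjusted p 0.639).

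Among the 7 transcription factors and feedback genes, ATF4 was the 1 member past the threshold, where 6.27% of all genes were called. The other 6 lay between -0.23 and 0.15. DDIT3, which encodes the pro-apoptotic factor CHOP, measured 13.1, 14.4 and 15.3 CPM in the controls and 10.4, 13.2 and 12.9 CPM in clone 1, where replicate 2 overlapped the lowest control (log2 change -0.23, SE 0.13, edgeR adjusted p 0.364). DDIT3 shares exon bases with MARS and MBD6 on the other strand. TRIB3, a pseudokinase that feeds back on ATF4, ranged from 53.9 and 64.8 to 86.4 CPM in the controls and measured 48.3, 66.7 and 67.8 CPM in clone 1. The spread among its controls exceeded the difference of the means (log2 change -0.17, SE 0.18, edgeR adjusted p 0.675). XBP1 measured 70.4, 61.6 and 69.9 CPM in the controls and 61.1, 64.4 and 65.4 CPM in clone 1, again with overlap (log2 change -0.08, edgeR adjusted p 0.633), and gene counts do not separate its spliced form. PPP1R15A (GADD34, which restores translation by guiding a phosphatase to eIF2-alpha) had a change of 0.08, and the C/EBP family members CEBPB and CEBPG had changes of 0.15 and 0.09.

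The 6 genes of serine, one-carbon and asparagine synthesis, known as ATF4 targets, did not move in 1 direction. PSAT1, the aminotransferase of serine synthesis (chr9:78297143-78330093, plus strand), measured 105, 109 and 117 CPM in the controls and 77.3, 95.7 and 88.9 CPM in clone 1. Its groups did not overlap, at 110.2 ± 6.10 CPM against 87.3 ± 9.31 CPM, and the log2 change of -0.34 (SE 0.09) came with an edgeR adjusted p of 0.0673. ASNS, the asparagine synthetase (chr7:97852118-97872542, minus strand), went the other way, with 23.6, 24.2 and 26.3 CPM in the controls and 27.0, 30.3 and 28.8 CPM in clone 1. These groups did not overlap either, and its log2 change was 0.21 (SE 0.09, edgeR adjusted p 0.213). MTHFD2, a mitochondrial one-carbon enzyme, had a change of -0.15 (edgeR adjusted p 0.212) with no overlap between its groups. PHGDH, which starts serine synthesis, SHMT2, which moves its carbon into folate, and PSPH, which ends serine synthesis, had changes of -0.03, -0.04 and 0.14 with overlapping libraries.

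Of the 3 amino acid transport genes, SLC7A11, the cystine importer, measured 78.5, 75.6 and 78.3 CPM in the controls and 90.6, 95.7 and 87.2 CPM in clone 1, so that each clone 1 library lay above each control. Its log2 change was 0.24 (SE 0.07, edgeR adjusted p 0.0804). SLC7A5, a leucine and large neutral amino acid transporter, and SLC3A2, the shared heavy chain that both transporters need at the membrane, had changes of 0.19 and -0.05 with overlapping groups. Annotated pseudogenes of SLC7A5 held 1284 counts beside 16967 for the gene.

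The 5 stress outputs held 0 members past the threshold, where 6.27% of all genes were called. CHAC1, a glutathione-degrading enzyme and a sensitive ATF4 target, measured 6.74, 5.49 and 7.38 CPM in the controls and 3.80, 5.34 and 6.03 CPM in clone 1. Clone 1 replicate 3 exceeded the lowest control, and the log2 change was -0.36 (SE 0.20, edgeR adjusted p 0.359) on 505 counts over the 6 libraries. SESN2, a stress-induced inhibitor of mTORC1, had a change of -0.16. DDIT4 (REDD1, another mTORC1 inhibitor), the lipoprotein receptor VLDLR and the secreted glycoprotein STC2 had changes of 0.20, 0.21 and 0.06.

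The 10 chaperones and folding factors were split evenly, with 5 changes above 0 and 5 below. HSPA5, the chaperone BiP that holds the sensors inactive (chr9:125234853-125241330, minus strand), measured 257, 245 and 263 CPM in the controls and 258, 269.5 and 293 CPM in clone 1, with overlap and a log2 change of 0.10 (SE 0.07, edgeR adjusted p 0.464). PDIA6, a disulfide isomerase, measured 598, 602 and 631 CPM in the controls and 697, 742 and 728 CPM in clone 1, all above the controls (log2 change 0.24, SE 0.07, edgeR adjusted p 0.0671). PDIA6 shares exon bases with ATP6V1C2 on the other strand. DNAJC3, a co-chaperone of HSPA5 known as an inhibitor of PERK, measured 124, 126 and 129 CPM in the controls and 106, 106 and 109 CPM in clone 1, all below the controls (log2 change -0.24, SE 0.06, edgeR adjusted p 0.0539). DNAJB9, a co-chaperone that acts on IRE1, and MANF, a secreted HSPA5 partner, also had groups without overlap, with changes of 0.29 and -0.13 (edgeR adjusted p 0.246 and 0.399). HSP90B1, PDIA4, HYOU1, SDF2L1 and CRELD2 lay between -0.09 and 0.12 with overlapping libraries.

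The 3 genes of degradation, HERPUD1, SEL1L and EDEM1, which recruit or pull misfolded proteins out of the endoplasmic reticulum, had changes of -0.19, 0.05 and 0.11 with overlap. The 8 members with an ERSE or ERSE-II in their promoter, printed above, held 0 past the threshold, where 6.27% of all genes were called. Their changes ran from -0.19 to 0.24 with a median of -0.07. The 5 members with an ATF4 core ranged from -0.36 for CHAC1 to 0.21 for ASNS and also held 0 past the threshold. With so few members, 0 calls cannot be told apart from the share over all genes.

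The TruSeq libraries fell into 2 sets by the number of genes detected that crossed the groups. Control replicates 1 and 2 and clone 1 replicate 1 had counts for 36042 to 39068 genes, and the other 3 libraries, although deeper, for 28621 to 30653. With a term for this split in the edgeR fit, 10 of 37 members passed the threshold, against 21.8% of all genes. ATF4 (-0.43), PSAT1 (-0.40), TRIB3 (-0.34), CHAC1 (-0.49), MTHFD2 (-0.17) and DNAJC3 (-0.25) were lower in clone 1 in that fit. SLC7A11 (0.23), PDIA6 (0.22), ERN1 (0.49) and EIF2AK3 (0.28) were higher in it. Within the 3 libraries with more genes detected, 3 members passed, ATF4, PSAT1 and EIF2AK3, against 6.39% of all genes. Within the other 3, 6 members passed, ATF4, TRIB3, PSAT1, SLC7A11, PDIA6 and DNAJC3, against 13.8% of all genes. Each of these within-set fits has 1 library in an arm, which is assumed to vary like the other arm, so its calls rest on that library. EIF2AK3 passed where that library was clone 1 replicate 1, at 35.2 CPM, and had a change of 0.12 (edgeR adjusted p 0.599) on the other side. The changes on the sides with more and fewer genes detected were -0.48 and -0.39 for ATF4 and -0.48 and -0.34 for PSAT1. The part of the split in these results was not tested beyond these fits.

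**Figure D2:**
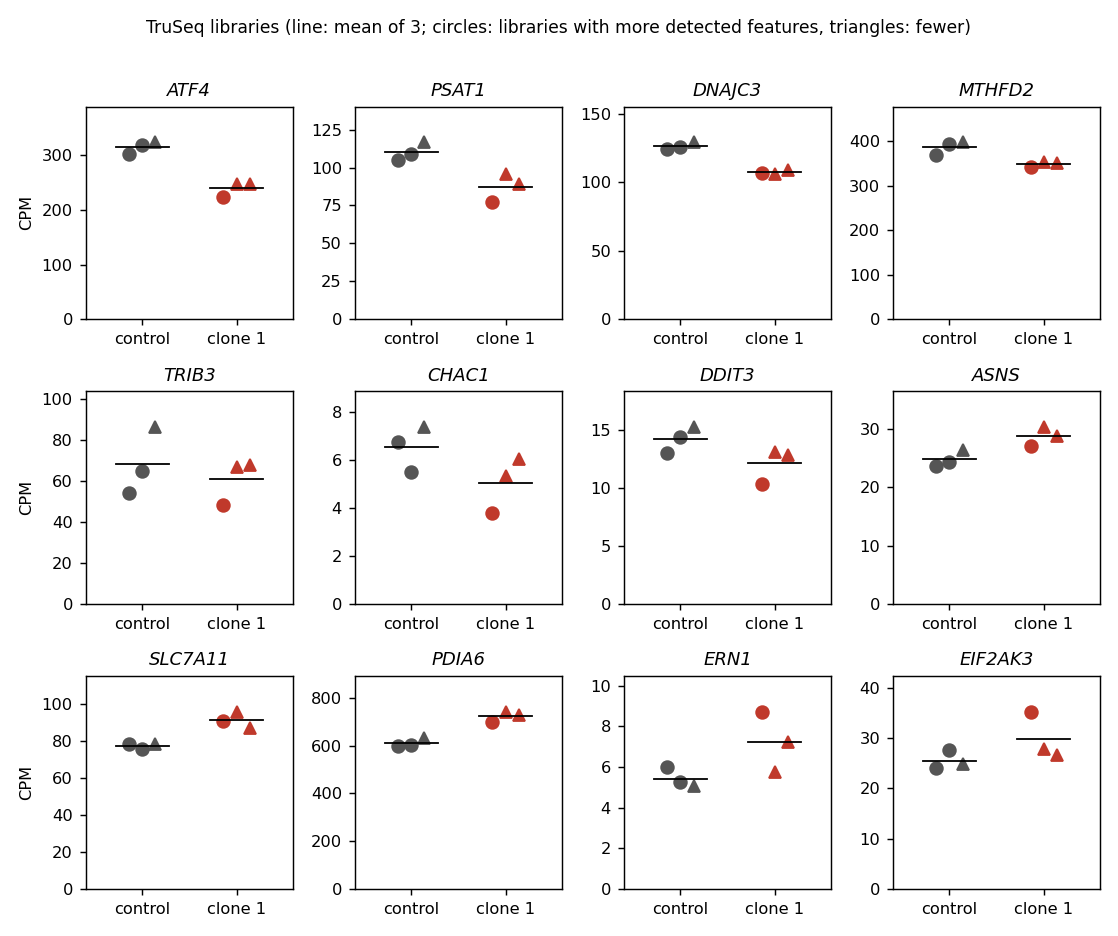
CPM in each TruSeq library for 12 of the genes, with a line at the mean of 3 libraries; circles are libraries with 36042 to 39068 genes detected and triangles those with 28621 to 30653. ATF4 and PSAT1 libraries of clone 1 lie below every control, SLC7A11 and PDIA6 libraries lie above, and in TRIB3 the triangles lie above the circles in both groups.

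In PLATE-seq 30 of the 37 members had enough counts to be tested among 8595 genes. ASNS, DNAJB9, HERPUD1, EDEM1, ERN1, EIF2AK3 and VLDLR did not. The limit that a count of 0 allows was taken as 3 counts, which is 0.911 to 3.72 CPM here. ERN1 had 4 counts in clone 2 replicate 2, 1 and 4 with SMARCAL1 siRNA and 0 in the other libraries. EIF2AK3 had 7 counts in clone 1 replicate 2, 1 in clone 2 replicate 2, 1 and 2 in clone 3, 1 in control siRNA replicate 2 and 0 in the others. ASNS had 1 and 0 counts in the controls, 2 and 2 in clone 1 and 3 and 7 in clone 2. It had 11 and 7 in clone 3, 2 and 1 with the control siRNA and 1 and 2 with SMARCAL1 siRNA. It thus passed the limit in 3 clone libraries. In clone 3 replicate 2 this was 2.13 CPM, below the limit of 3.32 and 3.72 CPM in the shallower controls. An equal level in the controls would not have passed there. EDEM1, DNAJB9, VLDLR and HERPUD1 had at most 12 counts in a library. The 5 groups other than the control are read against 2 control libraries, or for siRNA against 2 control siRNA libraries, and the comparisons of the clones share the same controls.

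The mean of the 3 clones against control called 0 of 30 members with edgeR, against 0.198% of all genes, and 0 with DESeq2. At an unadjusted p under 0.05 there were 4 members, against 10.1% of all genes, namely PPP1R15A, DDIT3 and ATF6 higher and SESN2 lower. The 6 clone libraries did not overlap the 2 controls for 3 members, PPP1R15A, DDIT3 and ATF6, all higher, against 12% of all genes. The log2 change was above 0 for 12 members and below 0 for 18, with a median of -0.26 against -0.01 over all genes.

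DDIT3 measured 5.53 and 4.96 CPM in the controls, 14.9 and 14.2 CPM in clone 1, 9.36 and 18.4 CPM in clone 2 and 22.7 and 19.7 CPM in clone 3. Each clone library lay above both controls, and the log2 change of the mean of clones was 1.61 (SE 0.67, edgeR adjusted p 0.426). The controls had only 5 and 4 counts, near the limit of 3 counts, so the size of this change is uncertain. With the control siRNA the same gene measured 14.9 and 21.8 CPM, also above both controls (log2 change 1.79, edgeR adjusted p 0.567), and with SMARCAL1 siRNA it measured 8.17 and 44.5 CPM.

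ATF6 measured 12.2 and 18.6 CPM in the controls, 36.2 and 26.8 CPM in clone 1, 18.7 and 32.8 CPM in clone 2 and 34.7 and 27.0 CPM in clone 3. The lowest clone library was just above the higher control, and the log2 change of the mean of clones was 0.93 (SE 0.43, edgeR adjusted p 0.472). The control siRNA libraries, at 35.9 and 23.9 CPM, and the SMARCAL1 siRNA libraries, at 33.3 and 31.6 CPM, lay in the range of the clones.

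PPP1R15A, named for its values, measured 111 and 130.2 CPM in the controls, 201 and 225 CPM in clone 1, 255 and 182 CPM in clone 2, and 172 and 237 CPM in clone 3. The log2 change of the mean of clones was 0.82 (SE 0.25, edgeR adjusted p 0.183), with 0.82, 0.86 and 0.77 in clones 1, 2 and 3. The control siRNA libraries were higher again, at 242 and 303 CPM (log2 change against control 1.18, edgeR adjusted p 0.258), and the SMARCAL1 siRNA libraries measured 274 and 230.3 CPM. Against the control siRNA libraries in place of the controls, the changes of the mean of clones were -0.36 for PPP1R15A, -0.18 for DDIT3 and -0.03 for ATF6. The direction of all 3 thus depends on which control is used. The control siRNA cells were transfected, so a response to transfection and low values in the 2 control libraries cannot be told apart. The 2 controls were also the shallowest libraries of the assay, and the part of depth was not tested.

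HSPA5 measured 79.6 and 74.4 CPM in the controls, 108 and 160.0 CPM in clone 1, 72.8 and 100.4 CPM in clone 2 and 117 and 107 CPM in clone 3. Clone 2 overlapped the controls, and the log2 change of the mean of clones was 0.50 (edgeR adjusted p 0.539). With the control siRNA HSPA5 measured 134 and 163 CPM and with SMARCAL1 siRNA 140.2 and 174 CPM, which puts all 4 transfected libraries above the 2 controls.

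ATF4 was not called in PLATE-seq. It measured 85.2 and 65.7 CPM in the controls, 51.7 and 54.6 CPM in clone 1, 41.6 and 52.3 CPM in clone 2, and 60.9 and 95.9 CPM in clone 3. Clones 1 and 2 lay below both controls, with log2 changes of -0.51 and -0.69 (edgeR adjusted p 0.756 and 0.570), and clone 3 spanned them at 0.06. The change of the mean of clones was -0.38 (SE 0.28, edgeR adjusted p 0.692), and it was -0.17 without control replicate 1.

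TRIB3 measured 19.9 and 16.1 CPM in the controls 13.1 and 14.7 CPM in clone 1, 17.7 and 13.3 CPM in clone 2 and 21.8 and 16.4 CPM in clone 3, with overlap and a log2 change of -0.17 for the mean of clones (edgeR adjusted p 0.930). CHAC1 and XBP1 averaged under 10 CPM and are given as counts. CHAC1 had 15 and 3 counts in the controls, 14 and 17 in clone 1, 9 and 1 in clone 2, 18 and 14 in clone 3, 8 and 19 with the control siRNA and 29 and 3 with SMARCAL1 siRNA. XBP1 had 2 and 10 counts in the controls, 17 and 11 in clone 1, 2 and 5 in clone 2, 15 and 30 in clone 3, 5 and 7 with the control siRNA and 19 and 10 with SMARCAL1 siRNA. These counts are not scaled to depth, which differed between libraries. Scaled to library size, neither gene separated the clones from the controls. The log2 changes of the mean of clones were -0.65 for CHAC1 and -0.23 for XBP1 (edgeR adjusted p 0.833 and 0.949).

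**Figure D3:**
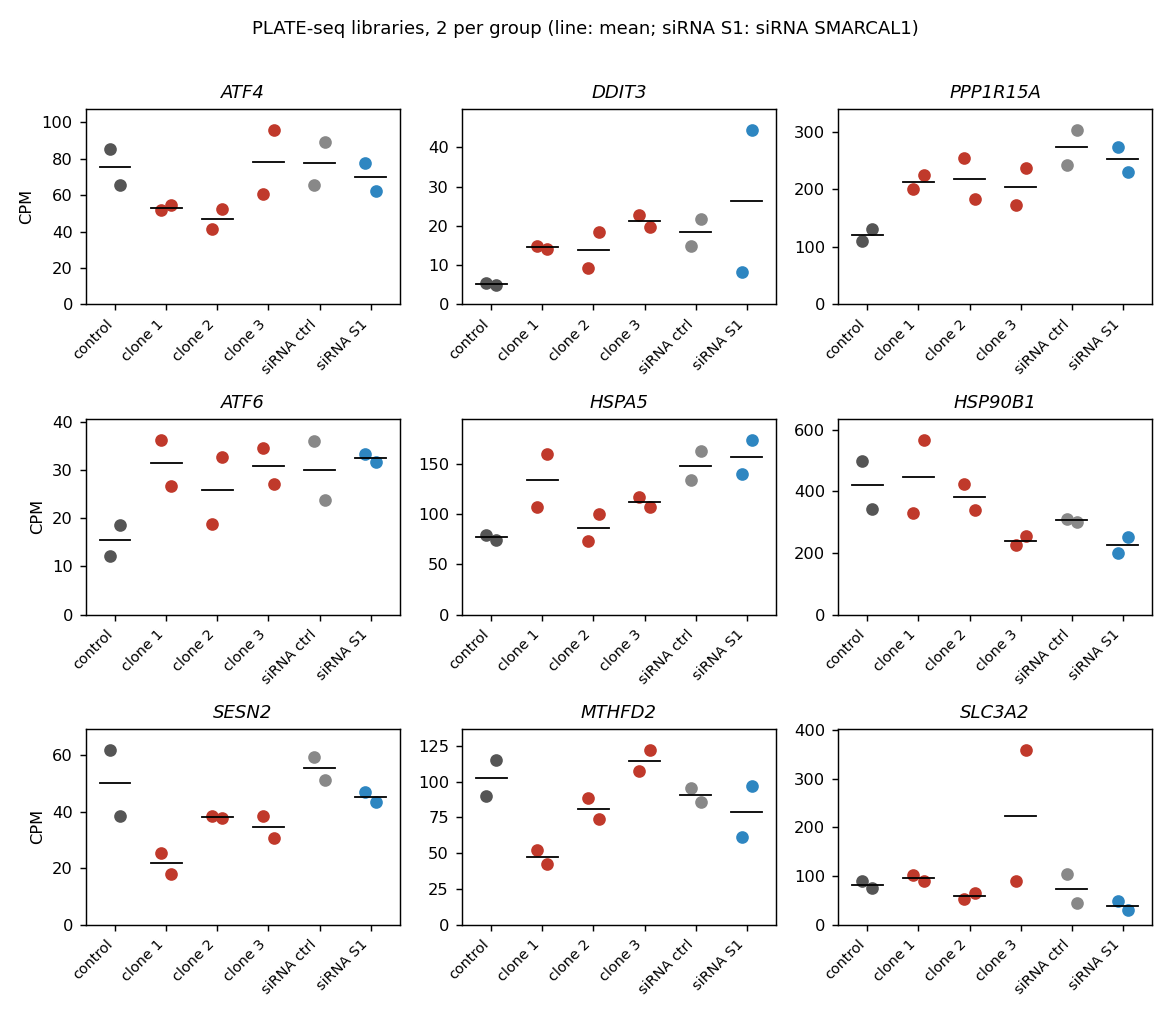
CPM in each PLATE-seq library for 9 of the genes, 2 libraries per group with a line at their mean. For DDIT3, PPP1R15A and ATF6 all clone libraries lie above both controls and so do the control siRNA libraries, and SLC3A2 has 1 clone 3 library at 359.5 CPM.

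Taken clone by clone with edgeR, 0 of 30 members were called in clone 1, against 0% of all genes, 0 in clone 2, against 0.0349%, and 0 in clone 3, against 0.663%. DESeq2 called 0 members in each. At an unadjusted p under 0.05 there were 5, 4 and 6 members, against 8.19%, 9.66% and 11.9% of all genes. Clone and control libraries did not overlap for 12, 13 and 9 members, against 39.2%, 38.3% and 42%, all near the background. PPP1R15A was the 1 gene with an unadjusted p under 0.05 in each of the 3 clones.

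The other low unadjusted p-values differed from clone to clone, and these genes are named for their values. In clone 1 MTHFD2 measured 52.3 and 42.0 CPM beside 89.6 and 115 CPM in the controls (log2 change -1.12, SE 0.33, edgeR adjusted p 0.304). SESN2 measured 25.6 and 18.0 CPM in clone 1 beside 61.9 and 38.5 CPM in the controls (log2 change -1.21, SE 0.41, edgeR adjusted p 0.402). Both clone 1 pairs lay below their controls. HSPA5 and ATF6, with values given above, had changes of 0.80 and 1.04 in clone 1 (edgeR adjusted p 0.487 and 0.603), with both clone 1 libraries above the controls, and HSPA5 was at 0.49 without clone 1 replicate 2. In clone 2 PHGDH had a change of 0.60, SHMT2 of -1.19 and SEL1L of -1.93, with edgeR adjusted p of 0.448, 0.479 and 0.454. SEL1L had 3 and 5 counts in clone 2, at or near the limit of 3 counts, and 11 and 16 in the controls. Its change ran from -2.34 to -1.54 over leaving out each library. Without control replicate 1 the change was -0.13 for SHMT2, whose controls measured 58.6 and 18.6 CPM, and 0.31 for PHGDH.

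In clone 3 the chaperone HSP90B1 measured 226 and 255 CPM beside 499.9 and 342 CPM in the controls (log2 change -0.81, SE 0.28, edgeR adjusted p 0.224). It was also below both controls with the control siRNA, at 310 and 302 CPM, and with SMARCAL1 siRNA, at 201 and 251 CPM. STC2 and DNAJC3 had changes of -0.95 and -1.03 in clone 3, and DDIT3 of 1.99 against controls with 5 and 4 counts. Without control replicate 1 the changes were -0.50 for HSP90B1 and -0.50 for STC2. SLC3A2 measured 88.9 CPM in clone 3 replicate 1 and 359.5 CPM in replicate 2, where the controls had 89.6 and 74.4 CPM. Its log2 change of 1.45 (SE 0.46, edgeR adjusted p 0.166) rested on that 1 library, since it was 0.12 without replicate 2 and 2.13 (edgeR adjusted p 0.00447) without replicate 1.

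The test of differences among the clones called 0 of 30 members with edgeR, against 0.71% of all genes, with 5 members at an unadjusted p under 0.05, against 11.3%. SLC3A2 had the lowest edgeR adjusted p, 0.0717, followed by MTHFD2 at 0.121. DESeq2 called these 2 genes. MTHFD2 measured 88.4 and 73.8 CPM in clone 2 and 107 and 122 CPM in clone 3, so clone 1 was the low clone.

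For siRNA against SMARCAL1 compared with the control siRNA, edgeR called 0 of 30 members, against 0% of all genes, and DESeq2 called 0. At an unadjusted p under 0.05 there were 3, against 6.33% of all genes, and groups did not overlap for 14 members, against 37.4%. PSAT1 measured 87.7 and 138 CPM with the control siRNA and 50.4 and 74.1 CPM with SMARCAL1 siRNA, both lower (log2 change -0.87, SE 0.33, edgeR adjusted p 0.650), and the change was -0.50 without control siRNA replicate 2. SLC7A11 measured 20.2 and 22.5 CPM and then 40.8 and 42.5 CPM, both higher (log2 change 0.96, SE 0.44, edgeR adjusted p 0.751). TRIB3 measured 8.77 and 11.9 CPM and then 21.8 and 25.7 CPM (log2 change 1.18, SE 0.55, edgeR adjusted p 0.773). PSAT1 and SLC7A11 had the same signs as in the TruSeq comparison of clone 1, and TRIB3 the opposite sign. ATF4 measured 65.7 and 89.1 CPM with the control siRNA and 77.6 and 62.3 CPM with SMARCAL1 siRNA, with overlap and a change of -0.15 (edgeR adjusted p 0.975).

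The difference between the mean clone effect and the siRNA effect was tested as an interaction. With edgeR and with DESeq2 0 of 30 members passed, against 0% of all genes with edgeR, and 2 had an unadjusted p under 0.05, against 7.76%. These were SLC3A2 with a difference of 1.32 and PPP1R15A with 0.93 (edgeR adjusted p 0.624 and 0.562). The SLC3A2 difference was 0.86 without clone 3 replicate 2 and 0.61 without control siRNA replicate 1. The control siRNA against the control called 0 members by either tool, against 0.0116% of all genes with edgeR. PPP1R15A, HSPA5 and DDIT3, all higher, had an unadjusted p under 0.05, against 7.78% of all genes, and groups did not overlap for 9 members, against 36.6%.

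Clone 1 was measured in both assays, with separate libraries and separate controls. Of the 30 members tested in PLATE-seq, 18 (60%) had the same sign of change in both assays, against 59.9% of the 8169 genes tested in both. ATF4 was lower in both (-0.39 and -0.51), as were MTHFD2 (-0.15 and -1.12) and DNAJC3 (-0.24 and -0.42). SLC7A11 was above 0 in both (0.24 and 0.49). The PLATE-seq libraries of clone 1 and control overlapped for DNAJC3 and SLC7A11 (edgeR adjusted p 0.889 and 0.838). DDIT3 went from -0.23 in TruSeq to 1.45 in PLATE-seq, where its controls had 5 and 4 counts. PSAT1, at -0.34 in TruSeq, was at 0.01 in PLATE-seq clone 1. With the mean of clones in place of clone 1, 20 of 30 members (66.7%) had the same sign as in TruSeq, against 57.4% of genes.

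**Figure D4:**
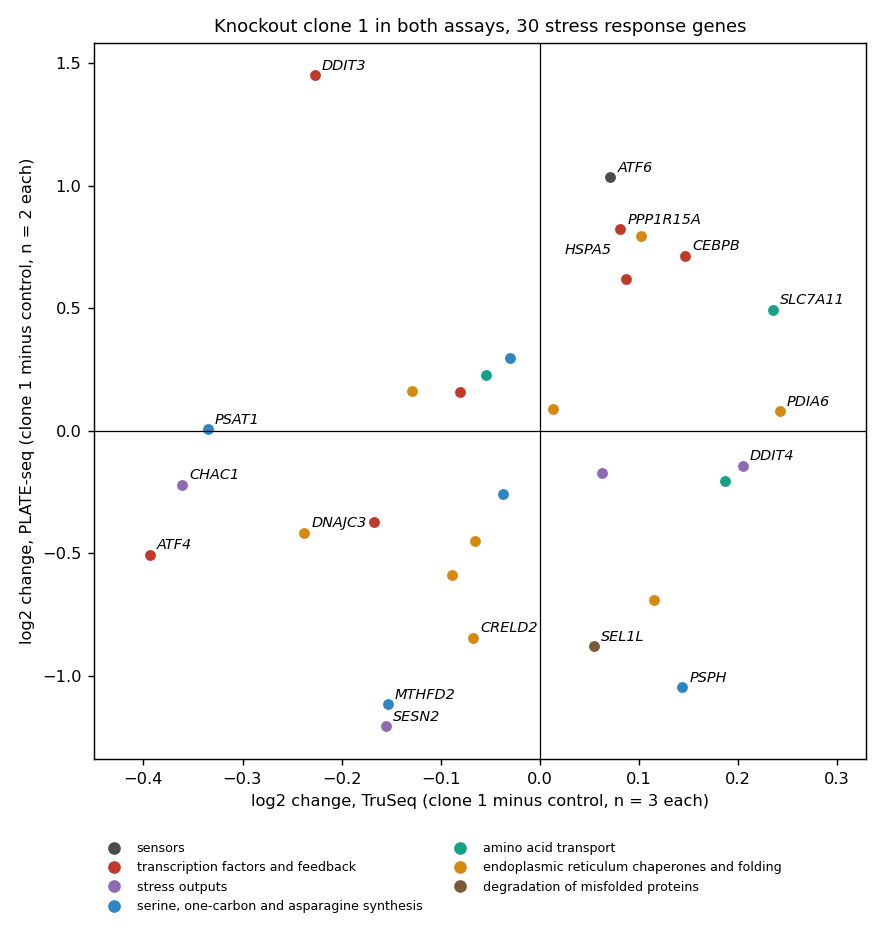
Log2 change of clone 1 minus control in TruSeq (x axis, n = 3 each) against that in PLATE-seq (y axis, n = 2 each) for the 30 genes tested in both, coloured by role. The x axis spans less than the y axis, 18 of the 30 points lie in the quadrants of equal sign, and DDIT3 lies far into the upper left.

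Further genes of these pathways, from a list of 60 outside the members, were counted in the same way. In TruSeq 57 were tested, of which 1 rose and 1 fell, against 6.27% of all genes called, with a median log2 change of 0.01. EIF2B3, a subunit of the exchange factor that phosphorylated eIF2-alpha blocks, measured 66.5, 64.2 and 71.8 CPM in the controls and 52.2, 53.1 and 52.7 CPM in clone 1, and it fell (log2 change -0.36, SE 0.07, edgeR adjusted p 0.0230). TXNDC5, a disulfide isomerase of the endoplasmic reticulum, measured 212, 226 and 252 CPM in the controls and 274, 345 and 321 CPM in clone 1, and it rose (log2 change 0.45, SE 0.10, edgeR adjusted p 0.0359). TXNDC5 had 0 counts in every PLATE-seq library. EIF2B3 measured 9.51 and 24.57 CPM in PLATE-seq clone 1, spanning the 22.1 and 19.85 CPM of the controls. Of the list, 46 genes were tested in PLATE-seq. EDEM2 in clone 3 was the 1 call over the contrasts (edgeR adjusted p 0.0318), against 0.663% of all genes in clone 3. EDEM2, a mannosidase of the degradation pathway, had 0 counts in both controls, 15 and 21 in clone 1, 17 and 8 in clone 2, 30 and 80 in clone 3, 7 and 14 with the control siRNA and 28 and 4 with SMARCAL1 siRNA. Against the limit of 3 counts over the 2 controls it was at least 11.3-fold higher in clone 3, and it was at least 4.67-fold higher with the control siRNA as well. By the same limit it was at least 5.84-fold higher in clone 1 of PLATE-seq. In TruSeq its change in clone 1 was 0.06 with overlapping groups (edgeR adjusted p 0.875). The limit covers counting error only and not the spread between replicates.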

How the data were processed

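The authors deposited raw counts per gene symbol for 6 TruSeq and 12 PLATE-seq libraries. They were made with STAR and HTSeq on hg38, per the submitters' processing notes; versions, annotation and strand setting are not given in the sources used here. Without a stated strand setting, reads of genes that overlap on opposite strands cannot be told apart, which touches 15 of the 37 members. The 92 PLATE-seq spike-ins were left out. They had 351 to 632 counts in each replicate 1 library and 3 to 17 in each replicate 2 library. The labels do not explain this split. Titles name MDA-MB-436, but the cell line tag of each PLATE-seq sample carries another number, and all were taken as MDA-MB-436.

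Each assay was fitted alone in edgeR 4.0.16 (R 4.3.3, limma 3.58.1) with filterByExpr, TMM and the quasi-likelihood F test on group. Benjamini-Hochberg adjustment ran over all genes tested, and p-values were two-sided. The fit was tried on simulated data with changes larger than those of the members, which did not test changes of the members' size. Residual degrees of freedom were 6 in the joint fit of the 12 PLATE-seq libraries and 4 in TruSeq, with biological coefficients of variation of 0.330 and 0.123. Standard errors are the log2 change over the root of F. No 2 replicates agreed within sampling noise (chi-square over its degrees of freedom, 5.66 to 33.9). A floor of 3 counts was 0.165 to 0.278 CPM in TruSeq and 0.911 to 3.72 CPM in PLATE-seq, and it covers counting error only.

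Alternatives were DESeq2 1.42.0, its size factors in edgeR, no filter, a replicate block, leaving out each library, fewer libraries in the fit and a term for the TruSeq split by genes detected. Fits within each side of that split, and the control siRNA in place of the control, were added after seeing the data. The members, lists and split were chosen with earlier results of these data known. Libraries are given in full for called members, for ATF4, DDIT3, XBP1, HSPA5, ATF6, ERN1, EIF2AK3, ASNS, CHAC1 and TRIB3, and for TruSeq members without overlap and with a log2 change of at least 0.3 in size. In PLATE-seq, members averaging under 10 CPM are given as counts. SLC7A11, PDIA6 and DNAJC3 in TruSeq, and PPP1R15A, MTHFD2, SESN2, HSP90B1, SLC3A2, PSAT1 and SLC7A11 in PLATE-seq, were added for their values. Positions are from GENCODE release 29 on GRCh38.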

Additional observations from a re-analysis of the deposited data

How the results depend on the processing

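The number of members past the threshold in TruSeq, 1, was 5 with a replicate block (where 13.7% of all genes were called), 10 with the term for the split by genes detected, 3 and 6 within its sides, and 0 to 1 over leaving out each library (0 without control replicate 2, clone 1 replicate 2 or clone 1 replicate 3). In clone 3 of PLATE-seq it was 1 without a count filter and 0 to 1 over leaving out each library, each time SLC3A2. Among clones it was 2 with DESeq2, 1 without a filter and 0 to 1 over leaving out each library. The other comparisons gave 0 members under each alternative run. Replicate numbers were not treated as pairs. Deviations of same-numbered TruSeq libraries correlated at 0.576, -0.273 and 0.376. Replicates 1 and 3 each lay on the same side of the split by genes detected in both groups, and replicate 2 did not. By these correlations, pairing by number and the split cannot be told apart. Deviations of same-numbered PLATE-seq libraries correlated at -0.058 to 0.056. Spike-in counts in PLATE-seq did split by replicate number, as given above. The part of that split was not tested beyond the replicate block. The replicate block moved the member count in TruSeq alone. The number of all genes called ran from 199 to 3793 in TruSeq over the alternatives, from 1089, from 5 to 83 for the mean of clones, from 17, and from 7 to 156 in clone 3, from 57. In PLATE-seq clone 1 it ran from 0 to 36, from 0, in clone 2 from 3 to 61, from 3, among clones from 17 to 230, from 61, for siRNA from 0 to 22, from 0, for the control siRNA from 0 to 35, from 1, and for the interaction from 0 to 44, from 0.

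Of 80 log2 changes of single members followed, 26 changed sign under some alternative and 54 under none. There were 37 sign changes in 919 alternative values, 0 of them in the change past the threshold, that of ATF4 in TruSeq. With the control siRNA in place of the control, the mean of clones was at -0.026 for ATF6, -0.18 for DDIT3, -0.45 for HSPA5, -0.36 for PPP1R15A, 0.62 for TRIB3 and 0.39 for XBP1, and clone 3 was at -0.41 for PPP1R15A. On the side with more genes detected CEBPB was at -0.060 and STC2 at -0.025. With a replicate block CHAC1 was at -0.27 for siRNA. Leaving out each library gave, in TruSeq, ranges of -0.15 to 0.041 for CRELD2, -0.0082 to 0.35 for DDIT4, -0.049 to 0.061 for HSP90B1, -0.11 to 0.087 for PHGDH, -0.19 to 0.075 for SDF2L1, -0.014 to 0.15 for SEL1L, -0.13 to 0.079 for SHMT2, -0.13 to 0.044 for SLC3A2 and -0.31 to 0.046 for TRIB3. In PLATE-seq it gave -0.31 to 0.35 for ATF4 in clone 3, -0.20 to 0.25 for ATF4 with the control siRNA, -1.39 to 0.80 for CHAC1 and -0.999 to 1.44 for XBP1 in the mean of clones. For siRNA against SMARCAL1 it gave -0.34 to 0.092 for ATF4, -0.15 to 0.45 for ATF6, -1.76 to 0.94 for CHAC1, -1.16 to 1.27 for DDIT3 and -0.082 to 0.23 for HSPA5. The cause of these sign changes was not tested. In PLATE-seq 7 members had too few counts to be tested.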
